A study of Homo sapiens with 18 samples.

Results

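The genes described here encode the machinery of the DNA replication fork. They were taken by function from a list of 40 gene symbols, and 39 of these had an entry among the 20705 gene symbols of the count table. FEN1 was not analysed here. Polyadenylated RNA of 2 established human melanoma cell lines, CHL1 and A375, was sequenced, giving 18 libraries that fall into 9 groups of 2 replicates. The labels call both lines wild type, while the study's methods give CHL1 as wild type for BRAF and NRAS with mutant p53, and A375 as BRAF mutant with wild-type p53. CHL1 cells received the DMSO vehicle for 72 hours (control), 1 µM palbociclib for 72 hours or 6 days (CDK4/6i), or 500 nM GSK3326595 for 72 hours (PRMT5i). A375 cells received the same treatments, and had a DMSO control for 6 days beside that for 72 hours. The single CHL1 control served for both times, so the CHL1 samples of 6 days differed from their control in culture time as well as in drug. Nothing in the labels says whether replicates came from separate cultures, so the p-values measure the spread between these samples only, which may be technical.

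At each origin, the origin recognition complex (ORC) marks the DNA and the MCM ring is loaded. In S phase CDC45 and the GINS complex join the ring and turn it into the CMG helicase. DNA polymerase alpha and its primase lay down primers, polymerase epsilon extends the leading strand and polymerase delta the lagging strand, and both are held on DNA by the sliding clamp PCNA, which replication factor C loads. DNA2 and LIG1 process and join Okazaki fragments, RPA covers single-stranded DNA, and TIMELESS, TIPIN, CLSPN, WDHD1 and TOPBP1 hold the fork together or carry the checkpoint signal. Many of these genes are transcribed under E2F factors, which the retinoblastoma protein restrains until CDK4 and CDK6 phosphorylate it. PRMT5 methylates arginine residues on splicing factors, histones and other proteins.

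Library totals ranged from 16213475 to 37424081 counts, and the lowest count of a member in any library was 19. The melanocyte gene MITF was present in every library, at 59.0 to 135 CPM in CHL1 and 85.0 to 218 CPM in A375. CPM is a count relative to the TMM-scaled size of its library. DCT was at 33.5 to 133 CPM in CHL1 and at or below 1.87 CPM in A375. S100B had a median of 33.3 CPM in CHL1 and 12.9 CPM in A375, and reached 118 and 114 CPM. In both lines PMEL stayed at or below 3.39 CPM, TYR at or below 5.17 CPM and TYRP1 at or below 3.77 CPM. The summed level of 2 keratinocyte markers stayed at or below 11.6 CPM, that of 2 leukocyte markers at or below 16.2 CPM, that of the endothelial marker VWF at or below 2.97 CPM and that of 4 fibroblast markers at or below 35.2 CPM, with PDGFRA and KRT5 at 0 in CHL1. The leukocyte marker PTPRC was at 6.86 to 15.7 CPM in CHL1 and at or below 0.614 CPM in A375. The fibroblast marker LUM was at 10.3 to 33.5 CPM in CHL1 and 1.47 to 17.9 CPM in A375. In A375 the keratinocyte marker KRT14 was at 1.58 to 11.3 CPM and the fibroblast marker COL1A1 at 1.62 to 26.7 CPM. Libraries also stood apart in how their counts followed GC content. The level of the 10% most GC-rich genes relative to the 10% most GC-poor was lower by a log2 difference of -2.48 and -1.97 in the CHL1 PRMT5i libraries and of -2.27 and -1.12 in the A375 6-day controls, against the median library of each line. The other libraries lay between -0.18 and 0.50. The members' own GC content ranged from 35.2% (PRIM2) to 65.1% (CHTF18), with a median of 44.5%. Calls below are without a GC correction unless it is named. Counts from fits that left out a single library are given without the share of all genes. They show how calls moved and are not results about the members alone. In GENCODE 44 on GRCh37, GINS4 (23.4%), POLA2 (21.3%), TIPIN (21.1%), PRIM1 (19.1%), PRIM2 (18.3%), GINS3 (10.9%) and RFC5 (10.65%) shared over 10% of their exon bases with other genes. The members PCNA and RPA2 (3 each), RPA3 (2), ORC1, PRIM2, RFC3, RFC5, TIPIN and POLD2 (1 each) have annotated pseudogenes. These values are uncertain as far as reads were split or dropped in the authors' counting, which was not tested.

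In untreated cells, PCNA had the highest level per kilobase of transcript in both lines, at 111 CPM per kb in CHL1 and 141 in A375 at 72 hours. It was followed by the primase subunit PRIM2 (69.8 CPM per kb) and the clamp loader subunit RFC3 (52.8) in CHL1, and by RFC3 (52.3) and PRIM2 (46.1) in A375. The lowest was the GINS subunit GINS4, at 0.709 CPM per kb in CHL1 and 0.659 in A375, below GINS3 at 5.59 and 5.45. Between the lines, edgeR's quasi-likelihood test with Benjamini-Hochberg adjustment over all genes found 11 of 39 members lower and 6 higher in A375 than in CHL1, when 29.3% of all genes were lower and 29.6% higher. The catalytic polymerase delta subunit POLD1 was higher in A375 (log2 difference of 1.32), while DSCC1, a clamp loader subunit, was lower (-0.93). POLD1 was at 144.6 ± 9.36 CPM in A375 and 49.3 ± 1.59 CPM in CHL1 (SD, n = 2 each). DSCC1 was at 38.8 ± 5.36 CPM in A375 and 63.3 ± 0.392 CPM in CHL1. CPM was scaled within each line, so levels of the 2 lines are not on a common scale, unlike the tested differences. The count of 11 was 7 without A375 control replicate 1, and the count of 6 was 3 without CHL1 control replicate 2 and 2 without A375 control replicate 2. The lines also differed in library set at 72 hours, which cannot be told apart from the line in this comparison.

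Palbociclib lowered fork genes in both lines and raised none of them past the threshold. In CHL1 at 72 hours, 15 of 39 members (38.5%) fell at an adjusted p below 0.05, against 2.72% of all genes that fell and 2.27% that rose, and the members' median log2 fold change was -0.43 when that of all genes was 0.0. In A375 at 72 hours, 27 of 39 (69.2%) fell, against 7.11% of all genes that fell and 6.22% that rose, with a median of -0.99. At 6 days, 20 members fell in CHL1 (median -0.60; 7.8% of all genes fell and 8.83% rose) and 23 in A375 (median -0.71; 21.3% fell and 21.8% rose). No member rose in any of these 4 comparisons by edgeR or by DESeq2, and at an unadjusted p below 0.05 only POLE3 did, at 6 days in A375. In CHL1 at 6 days CHTF18 was called higher when PRMT5i replicate 1 or 2 was left out, and 7 members were higher in A375 at 6 days without 6-day control replicate 2. With a GC correction, over 13691 genes, no member lost its call in CHL1 at either time or in A375 at 72 hours. It added LIG1 and RFC2 in CHL1 at 72 hours (17 lower, 6.8% of genes), ORC2, POLD1, POLD2, DSCC1 and DNA2 in CHL1 at 6 days (25 lower, 13.5% of genes), and ORC3, ORC6, GINS4, POLD2, CHTF18 and RPA1 in A375 at 72 hours (33 lower, 15.8% of genes). The CHL1 count at 72 hours rested on both replicates: it was 0 without control replicate 1, 0 without either CDK4/6i replicate and 1 without control replicate 2. The CHL1 count at 6 days was 7 or 10 without control replicate 1 or 2 and 12 without CDK4/6i replicate 2. That of A375 at 72 hours was 17 without control replicate 2 and 15 without CDK4/6i replicate 1. In bulk RNA, a smaller share of cells in S phase and less RNA per cell cannot be told apart.

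**Figure D1:**
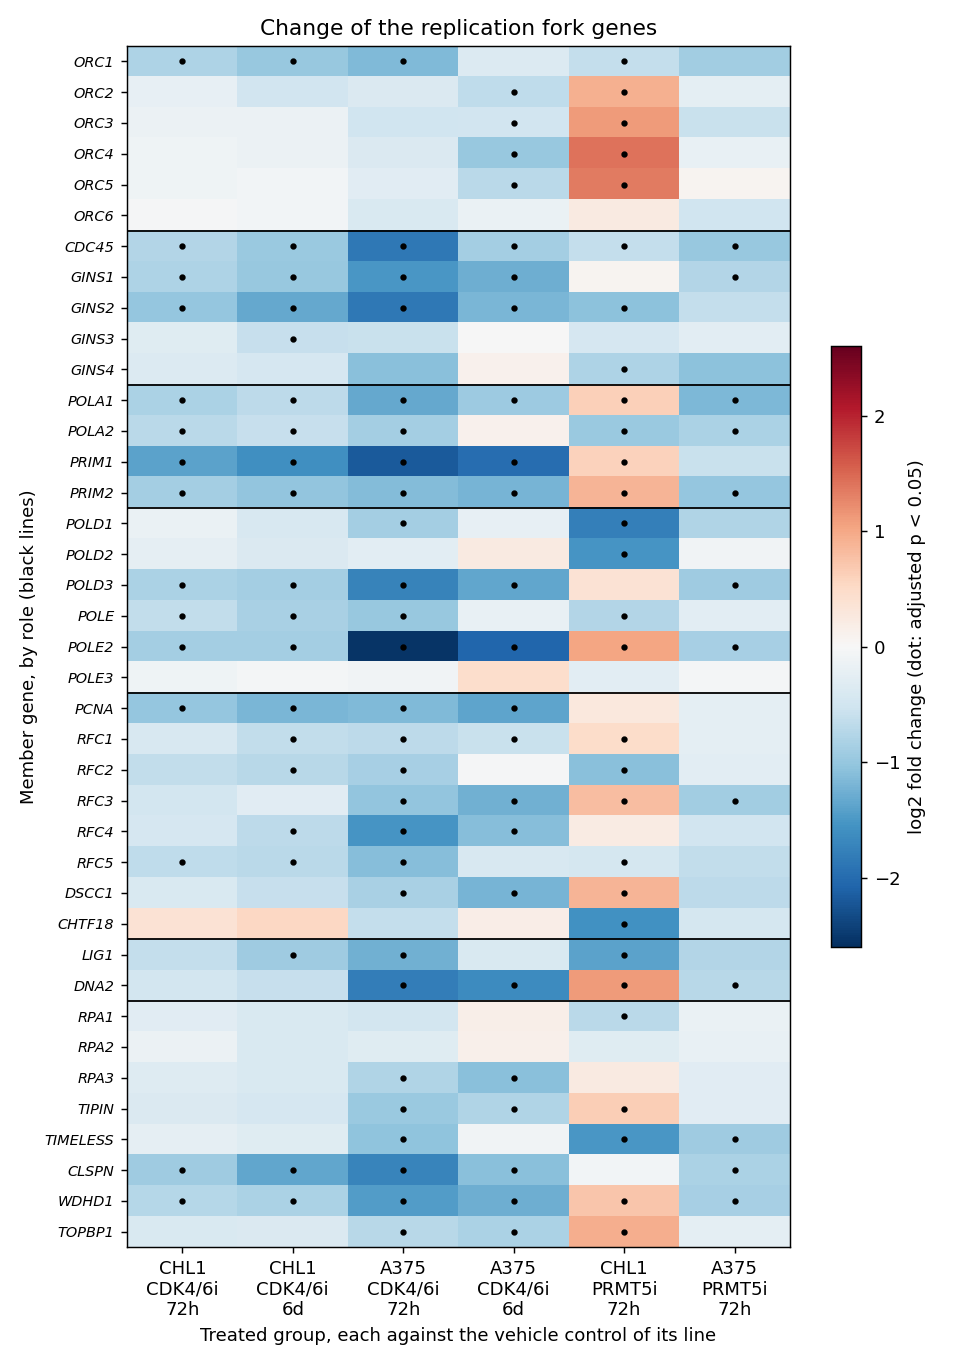
Log2 fold change of each of the 39 members (rows, in 7 role classes divided by black lines) in each treated group against the control of its line and time, or for CHL1 at 6 days against the 72-hour control (columns). Colour gives the log2 fold change and a dot marks an adjusted p below 0.05 in edgeR. The 4 CDK4/6i columns hold 15, 20, 27 and 23 dots, all on lower values, while the CHL1 PRMT5i column holds 14 lower and 15 higher.

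The 4 subunits of polymerase alpha-primase moved together at 72 hours, with all 4 lower in both lines. PRIM1 (chr12:57124222-57146158 on GRCh37, minus strand), the catalytic primase subunit, had the lowest mean change of all members. Its level was 29.2 and 27.0 CPM in the CHL1 controls, 9.93 and 11.5 CPM after 72 hours of palbociclib and 10.3 and 8.20 CPM after 6 days. In A375 it was 29.2 and 34.8 CPM in the 72-hour controls against 6.87 and 7.24 CPM, and 39.0 and 31.1 CPM in the 6-day controls against 9.26 and 8.54 CPM. All treated libraries lay below all controls, and PRIM1 fell to 38.1% and 33.0% of control in CHL1 and to 22.1% and 25.4% in A375 (log2 changes of -1.39 ± 0.21, -1.60 ± 0.22, -2.18 ± 0.22 and -1.98 ± 0.21, SE). The least affected of the 4 was the accessory subunit POLA2, which fell from 72.2 and 64.7 to 42.9 and 41.0 CPM in CHL1 and from 78.1 and 76.4 to 44.7 and 38.8 CPM in A375 at 72 hours. At 6 days POLA2 did not pass the test in A375, with 49.0 and 52.9 CPM against 37.8 and 57.0 CPM in overlapping groups. The catalytic subunit POLA1 fell in all 4 comparisons, by log2 changes of -0.68 to -1.33, as did PRIM2, by -0.89 to -1.20, although its value in A375 at 6 days was -0.19 with a GC correction and no longer passed.

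Within the CMG helicase, CDC45 and the GINS subunits GINS1 and GINS2 fell in all 4 CDK4/6i comparisons. CDC45 (chr22:19466980-19508135) was at 51.2 and 49.9 CPM in the CHL1 controls, 30.1 and 29.3 CPM at 72 hours and 26.5 and 25.0 CPM at 6 days. In A375 it fell from 46.9 and 47.7 to 12.4 and 13.6 CPM at 72 hours and from 24.1 and 36.4 to 16.7 and 16.2 CPM at 6 days. Its controls at 6 days were themselves below those at 72 hours, and the fall was to 27.6% at 72 hours and to 54.5% at 6 days (log2 change of -0.88, or -1.27 with a GC correction). GINS2 (chr16:85709804-85723679, minus strand) fell from 29.1 and 25.1 to 14.2 and 12.9 CPM at 72 hours and to 11.8 and 9.88 CPM at 6 days in CHL1. In A375 it went from 31.6 and 40.3 to 8.63 and 11.1 CPM and from 13.7 and 22.6 to 8.68 and 7.26 CPM. GINS1 changed by log2 values of -0.81 to -1.52, with -1.28 in A375 at 6 days, or -0.75 with a GC correction. GINS3 passed the test at 6 days in CHL1 alone, with 12.8 and 10.8 CPM against 18.3 and 17.5 CPM, and GINS4, the least abundant member, passed in none of the 4 without a GC correction and in A375 at 72 hours with it (-1.11).

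Among the replicative polymerases, the changes differed widely between subunits. POLE2 (chr14:50110273-50155140, minus strand), the second subunit of polymerase epsilon, was at 15.1 and 14.9 CPM in the CHL1 controls, 7.34 and 8.90 CPM at 72 hours and 8.56 and 7.67 CPM at 6 days. In A375 it dropped from 25.3 and 27.2 to 3.90 and 5.10 CPM at 72 hours and from 28.3 and 22.0 to 6.03 and 6.03 CPM at 6 days. This was a fall to 54.2% in CHL1 at either time and to 17.2% (log2 change of -2.54 ± 0.23, adjusted p = 1.61e-05 in edgeR) and 24.0% in A375 (-2.06 at 6 days, or -1.84 with a GC correction). POLD3, an accessory subunit of polymerase delta, also fell in all 4 comparisons, by log2 changes of -0.82 to -1.75. The catalytic subunit POLE fell in both lines at 72 hours and in CHL1 at 6 days, and POLD1 in A375 at 72 hours (log2 change of -0.88). With a GC correction POLD1 was also lower in CHL1 at 6 days (-0.65) and in A375 at 6 days (-0.71), and POLE in A375 at 6 days (-0.66). POLE3, a histone-fold subunit of polymerase epsilon, did not pass the test in any of the 6 comparisons of a drug with control. It was at 71.1 and 57.5 CPM in the CHL1 controls against 62.4 and 57.0 CPM at 72 hours and 60.7 and 63.6 CPM at 6 days, and in A375 at 66.6 and 83.9 against 69.3 and 71.7 CPM at 72 hours. At 6 days in A375 it was higher in both treated libraries, at 68.6 and 67.0 CPM against 42.2 and 56.8 CPM (log2 change of 0.45, adjusted p = 0.0666 in edgeR). POLD2, the second subunit of polymerase delta, did not pass in any of the 4 either, with log2 changes of -0.38 to 0.23, but was called lower with a GC correction in CHL1 at 6 days (-0.46) and in A375 at 72 hours (-0.41).

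**Figure D2:**
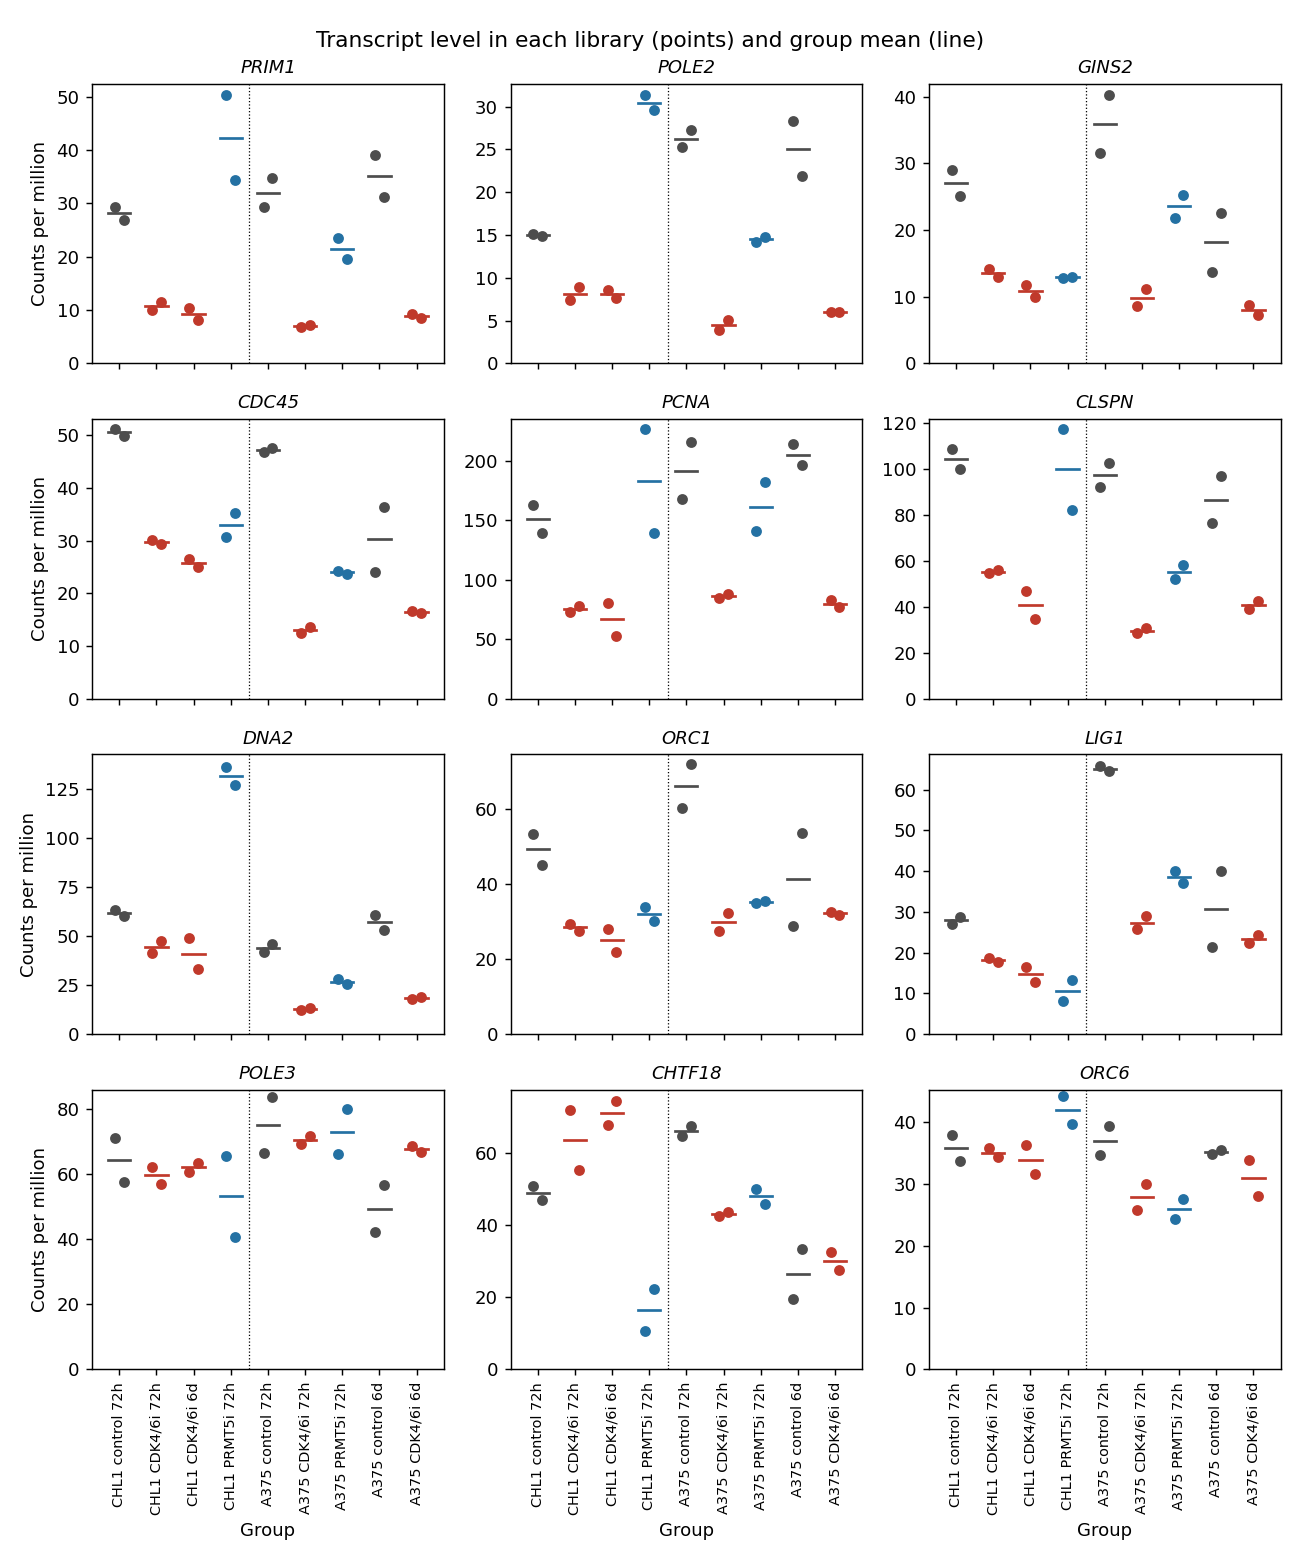
Level of 12 members in CPM (vertical axes, linear from 0) in every library of the 9 groups (points; lines are group means of 2 libraries; grey control, red CDK4/6i, blue PRMT5i; CHL1 left and A375 right of the dotted line). PRIM1 stood at 6.87 to 11.5 CPM in all CDK4/6i libraries and at 27.0 to 39.0 CPM in all controls, whereas in CHL1 the ORC6 level was 31.6 to 36.2 CPM in CDK4/6i libraries and 33.8 and 37.9 CPM in controls.

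PCNA fell in all 4 CDK4/6i comparisons, and the genes of its loaders fell to varying degrees. PCNA (chr20:5095599-5107272, minus strand) was at 163 and 139.7 CPM in the CHL1 controls, 72.5 and 77.9 CPM at 72 hours and 80.4 and 53.0 CPM at 6 days. In A375 it fell from 168 and 216 to 84.3 and 87.8 CPM at 72 hours and from 214 and 197 to 82.6 and 76.7 CPM at 6 days. The fall was to 49.6% and 44.1% of control in CHL1 and to 44.8% and 38.8% in A375. All 5 subunits of replication factor C fell in A375 at 72 hours, by log2 changes of -0.67 (RFC1) to -1.54 (RFC4), and of these RFC5 passed in CHL1 at 72 hours, and RFC2 too with a GC correction. At 6 days in CHL1 RFC1, RFC2, RFC4 and RFC5 were lower and RFC3 was at -0.29. DSCC1, part of the CTF18 clamp loader, fell in A375 at both times. CHTF18, the large subunit of that loader, had the highest mean change of all members and passed in none of the 4 without a GC correction: it was at 50.8 and 47.0 CPM in the CHL1 controls against 72.0 and 55.2 CPM at 72 hours and 67.9 and 74.3 CPM at 6 days, and in A375 at 64.6 and 67.6 against 42.4 and 43.6 CPM at 72 hours, where it was called lower with the correction (-0.88).

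Both measured genes of Okazaki fragment processing fell in A375 at 72 hours. DNA2 (chr10:70173821-70231878, minus strand), a nuclease and helicase that trims long flaps, went from 41.8 and 46.1 to 12.0 and 13.4 CPM at 72 hours and from 60.9 and 53.0 to 17.9 and 18.8 CPM at 6 days in A375 (log2 change of -1.63, or -0.88 with a GC correction). In CHL1 it was at 63.1 and 60.2 CPM in the controls, 41.1 and 47.4 CPM at 72 hours and 48.7 and 33.0 CPM at 6 days. Treated CHL1 libraries lay below both controls, yet the adjusted p values of 0.178 and 0.0528 (edgeR) missed the threshold, although DNA2 was called lower at 6 days with a GC correction. LIG1, the ligase that seals fragments, fell from 65.8 and 64.5 to 25.8 and 28.9 CPM in A375 at 72 hours. At 6 days in A375 it was at 22.2 and 24.3 CPM against 21.2 and 39.9 CPM in overlapping groups (-0.40, or -0.87 and called lower with a GC correction), and it fell in CHL1 at 6 days to 52.5% of control.

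Of the genes for origin recognition, ORC1 was the one that passed in CHL1 and in A375 at 72 hours. ORC1 (chr1:52838501-52870095, minus strand), the subunit whose level is known to follow the cell cycle, fell from 53.4 and 45.1 to 29.4 and 27.3 CPM at 72 hours and to 28.1 and 21.9 CPM at 6 days in CHL1. In A375 it fell from 60.3 and 72.0 to 27.5 and 32.2 CPM at 72 hours. At 6 days in A375 it was at 32.6 and 31.8 CPM against 28.8 and 53.6 CPM in controls that overlapped with it (-0.36, or -0.66 and called lower with a GC correction). ORC2 to ORC6 did not pass in CHL1 at either time or in A375 at 72 hours, with log2 changes of -0.03 to -0.52, but with a GC correction ORC2 was called lower in CHL1 at 6 days (-0.44) and ORC3 (-0.34) and ORC6 (-0.43) in A375 at 72 hours. In A375 at 6 days ORC2, ORC3, ORC4 and ORC5, with a GC content of 37.7% to 41.0%, passed as lower, by -0.50 to -0.99. With a GC correction ORC2, ORC3 and ORC4 no longer passed there, and ORC3 was at 0.12. Without the correction ORC6 did not pass in any of the 4, at 37.9 and 33.8 CPM in CHL1 against 35.8 and 34.3 CPM at 72 hours and 36.2 and 31.6 CPM at 6 days, and in A375 at 34.7 and 39.3 against 25.8 and 30.1 CPM at 72 hours and 34.8 and 35.4 against 33.8 and 28.1 CPM at 6 days.

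The fork protection genes CLSPN and WDHD1 fell in all 4 CDK4/6i comparisons. CLSPN (chr1:36185819-36235579, minus strand), the claspin gene that links stalled forks to the checkpoint kinase CHK1, was at 109 and 99.9 CPM in the CHL1 controls, 54.7 and 55.9 CPM at 72 hours and 47.1 and 34.7 CPM at 6 days. In A375 it fell from 92.4 and 103 to 28.6 and 30.6 CPM at 72 hours and from 76.5 and 97.0 to 39.1 and 42.6 CPM at 6 days. WDHD1, a scaffold between the helicase and polymerase alpha, changed by log2 values of -0.75 to -1.45, with -1.27 in A375 at 6 days, or -0.55 with a GC correction. TIPIN, TOPBP1 and RPA3 fell in A375 at both times and TIMELESS at 72 hours, and none of these passed in CHL1. With a GC correction TIPIN lost its call at 6 days in A375 (-0.32) and TIMELESS gained one (-0.48). RPA1 and RPA2, the larger subunits of the single-strand binding protein, passed in none of the 4, though RPA1 was called lower in A375 at 72 hours with a GC correction (-0.51). RPA2 was at 38.1 and 35.6 CPM in the CHL1 controls against 32.9 and 33.2 CPM at 72 hours and 30.3 and 25.8 CPM at 6 days, and at 61.2 and 72.1 against 51.0 and 55.8 CPM in A375 at 72 hours.

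The lines were compared at 72 hours with a test of the difference between their responses. All 15 members that fell in CHL1 were among the 27 that fell in A375, 55.6% of the latter, when over all genes 61.8% of those that fell in CHL1 fell in A375 too, 23.6% of the latter. The A375 response was lower in 37 of 39 members, with a median difference of -0.39, but the difference itself passed for only 2 members, when it was lower in A375 for 0.241% of all genes and higher for 0.401%. These were POLE2 (-1.60 ± 0.28, adjusted p = 0.0112) and DNA2 (-1.26 ± 0.26, adjusted p = 0.0280, edgeR). The count moved between 0 and 6 when single libraries were left out: it was 0 without either CHL1 control, without CHL1 CDK4/6i replicate 2, without A375 control replicate 2 or without A375 CDK4/6i replicate 1, it was 1 without CHL1 CDK4/6i replicate 1, A375 control replicate 1 or A375 CDK4/6i replicate 2, and it was 6 without either A375 6-day control. At 6 days 13 members fell in both lines, 65.0% of the CHL1 members that fell and 56.5% of those in A375 (45.2% and 16.5% over all genes), though the A375 values there moved with GC content.

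**Figure D3:**
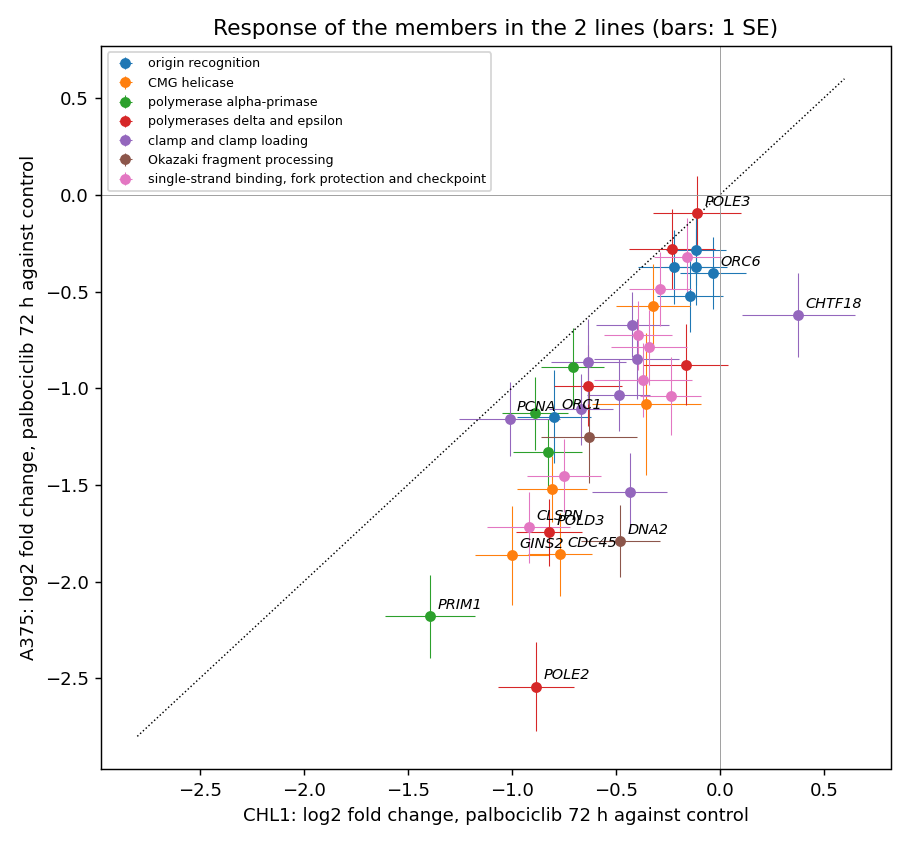
Log2 fold change of the 39 members after 72 hours of palbociclib in CHL1 (horizontal axis) and A375 (vertical axis), each against its own control, coloured by role, with bars of 1 SE; the dotted line marks equal change. Most members lie below the line, with POLE2 at -0.88 in CHL1 and -2.54 in A375 and CHTF18 at 0.38 and -0.62.

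With all libraries in the edgeR fit, no member passed the test of a difference between the treatment times. In CHL1, 6 days against 72 hours of palbociclib gave 0 members lower and 0 higher in edgeR, 0 in DESeq2 and 0 at an unadjusted p below 0.05 (0% and 0.0145% of all genes), and log2 differences ran from -0.43 (CLSPN) to 0.19 (RFC3). In A375 the difference between the response at 6 days and that at 72 hours, each against its own control, passed for 0 members in edgeR (0.908% of all genes lower and 0.174% higher). DESeq2 called 1 member higher, when it called 0.879% of all genes higher and 4.66% lower. At an unadjusted p below 0.05 in edgeR 13 members were higher and 1 lower, against 1857 and 2261 of all 20705 genes. The members' median difference was 0.43. Without A375 6-day control replicate 2, which leaves the control with the larger GC shift, some members passed. The share of all genes in that fit is not given here. The 6-day and 72-hour A375 libraries belong to different library sets, and each response was measured within its set. The members that fell at 6 days in A375 had a GC content of 35.2% to 52.0% (median 41.0%) and those that did not pass 43.6% to 65.1% (median 49.9%). Over the 39 members the log2 change at 6 days and GC content had a Pearson r of 0.57 without and -0.06 with the GC correction, as a description over genes that share libraries. Without the correction Spearman's rho was 0.63 over the members and 0.59 over 13691 genes, so the trend was not particular to the members. With the correction 23 members fell and the median was -0.49, when 20.5% of the genes tested fell and 21.9% rose. ORC1, POLD1, POLE, RFC2, LIG1 and TIMELESS passed only with it, and ORC2, ORC3, ORC4, PRIM2, RFC1 and TIPIN only without it.

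The promoters of the members with the lowest and the highest mean log2 change over the 4 CDK4/6i comparisons are printed below, to show what the letters near their start sites hold. The mean keeps the sign, so rises and falls of a member offset each other, as for CHTF18. RefSeq promoter windows on GRCh38.p14, from 250 bases before to 50 after a start site, were found for 33 of the members. The E2F words TTTCCCGC, TTTGGCGC, TTTCGCGC and TTTGCCGC were sought on both strands. At least 1 of them stood in a window of 14 members (42.4%), against 3.99% of all 27305 genes with a window and 3.31% of all 35116 windows. A CHR word, TTTGAA or TTCGAA, stood in a window of 1 member, POLE3 (3.03%), against 19.5% of all genes. That POLE3 window (chr9:113410325-113410624) is not the one printed below, which holds no CHR word. Each sequence runs 5′ to 3′ on the strand of its gene, in lower case, with an E2F word on either strand in capitals.
PRIM1, chr12:56752274-56752573, minus strand: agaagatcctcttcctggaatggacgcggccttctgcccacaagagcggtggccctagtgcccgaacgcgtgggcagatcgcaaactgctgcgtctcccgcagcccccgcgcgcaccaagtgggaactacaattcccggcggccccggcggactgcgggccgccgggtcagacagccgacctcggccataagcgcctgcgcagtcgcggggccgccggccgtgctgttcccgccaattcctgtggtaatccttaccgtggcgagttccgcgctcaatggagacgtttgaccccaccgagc
POLE2, chr14:49688165-49688464, minus strand: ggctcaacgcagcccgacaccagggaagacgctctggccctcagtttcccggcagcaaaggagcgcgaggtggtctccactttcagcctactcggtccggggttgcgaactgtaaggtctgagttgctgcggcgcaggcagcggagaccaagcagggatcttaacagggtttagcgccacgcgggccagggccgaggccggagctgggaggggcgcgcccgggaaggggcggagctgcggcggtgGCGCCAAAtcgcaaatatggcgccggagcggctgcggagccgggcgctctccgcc
POLE3, chr9:113410700-113410999, minus strand: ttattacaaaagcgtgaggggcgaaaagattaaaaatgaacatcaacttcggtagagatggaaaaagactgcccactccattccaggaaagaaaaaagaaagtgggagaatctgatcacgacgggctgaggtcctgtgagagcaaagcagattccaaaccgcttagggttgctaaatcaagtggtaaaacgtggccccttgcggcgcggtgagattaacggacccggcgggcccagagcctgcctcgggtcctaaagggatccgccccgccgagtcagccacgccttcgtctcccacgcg
CHTF18, chr16:788370-788669, plus strand: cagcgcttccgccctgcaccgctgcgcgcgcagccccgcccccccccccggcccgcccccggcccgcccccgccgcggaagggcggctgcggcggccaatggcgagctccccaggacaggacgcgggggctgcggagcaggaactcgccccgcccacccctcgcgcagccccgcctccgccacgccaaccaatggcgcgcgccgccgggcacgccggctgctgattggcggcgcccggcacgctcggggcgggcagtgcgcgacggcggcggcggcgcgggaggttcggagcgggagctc
Only the POLE2 window of these 4 held an E2F word, read on the opposite strand and starting 5 bases before the start site. The windows of GINS2, CLSPN, GINS1, POLA1, LIG1 and PCNA held such a word, as did that of GINS3, whereas those of PRIM1, CDC45, WDHD1 and ORC1 did not. In A375 at 72 hours, 12 of the 14 members with a word and 11 of the 19 without fell (7.11% of all genes), with median log2 changes of -1.10 and -0.86. In CHL1 at 72 hours 8 of 14 and 6 of 19 fell (2.72% of all genes), with medians of -0.67 and -0.29. At 6 days 10 of 14 and 9 of 19 fell in either line (7.8% of all genes in CHL1 and 21.3% in A375). The A375 controls of 6 days carry a GC shift. Under PRMT5i 6 of 14 and 4 of 19 fell in A375 (1.74% of all genes), with medians of -0.68 and -0.49. In the CHL1 PRMT5i libraries, which carry a GC shift, 4 of 14 and 9 of 19 were lower, and 6 and 7 higher (27.6% and 26.4% of all genes). A word is a match of letters and was not tested as a binding site. Whether changes go with a word over all genes was not tested.

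In A375, PRMT5i lowered part of the fork genes and raised none past the threshold. Of the 39 members, 12 fell and 0 rose (1.74% of all genes fell and 0.874% rose), with a median log2 change of -0.57. DESeq2 called 16 lower and 0 higher (2.87% and 1.48% of all genes). At an unadjusted p below 0.05 in edgeR the counts were 23 and 0, against 1887 and 1445 of all 20705 genes. The members that fell were CDC45, GINS1, POLA1, POLA2, PRIM2, POLD3, POLE2, RFC3, DNA2, TIMELESS, CLSPN and WDHD1, by log2 changes of -0.72 (DNA2) to -1.17 (POLA1). CDC45 was at 24.3 and 23.7 CPM against 46.9 and 47.7 CPM in the controls, and POLE2 at 14.2 and 14.8 against 25.3 and 27.2 CPM. PCNA was at 141 and 182 CPM against 168 and 216 CPM and did not pass, nor did PRIM1 at 23.4 and 19.6 against 29.2 and 34.8 CPM. GINS4 (log2 change of -1.08) and ORC1 (-0.91) did not pass either. The count was 0 without control replicate 1, 0 without either PRMT5i replicate, 1 without control replicate 2, 6 without either CDK4/6i replicate and 23 without either 6-day control. It was 24 in a fit of the 6 A375 libraries of 72 hours, where 9.13% of all genes were lower. A replicate block in such a fit gave 31 (15.4% of all genes). With a GC correction the count was 21 (6.66% of genes), and PRIM1 and ORC1 were called lower in all 3.

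A direct test of the drugs in A375 found 10 members higher under PRMT5i than under CDK4/6i at 72 hours and 0 lower (2.37% and 3.09% of all genes). DESeq2 called 12 higher and 0 lower (3.31% and 4.4% of all genes). The counts at an unadjusted p below 0.05 in edgeR were 18 and 0, against 2093 and 2187 of all 20705 genes. The 10 were PRIM1, POLE2, GINS2, DNA2, RFC4, PCNA, CLSPN, CDC45, POLD3 and GINS1, from 1.68 (POLE2) and 1.61 (PRIM1) down to 0.76 (GINS1) on the log2 scale. PRIM1 was at 23.4 and 19.6 CPM under PRMT5i and at 6.87 and 7.24 CPM under CDK4/6i. None of the ORC genes passed, with ORC1 at 35.0 and 35.3 CPM against 27.5 and 32.2 CPM. The count was 2 without any 1 of the 4 libraries compared and 20 without either 6-day control. The drugs were given at different doses.

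In CHL1 under PRMT5i, 14 of 39 members (35.9%) were lower and 15 (38.5%) higher than control. Over all genes 27.6% were lower and 26.4% higher, and of genes with at least 1 CPM in at least 2 libraries 35.3% and 35.1%, so the members stood near the shares of expressed genes. The members' median log2 change was 0.21. The largest falls were in POLD1 (-1.77), CHTF18 (-1.57), POLD2 (-1.53), TIMELESS (-1.51) and LIG1 (-1.40). The largest rises were in ORC4 (1.42), ORC5 (1.36), ORC3 (1.11), DNA2 (1.10) and POLE2 (1.02). CHTF18 was at 10.6 and 22.4 CPM against 50.8 and 47.0 CPM, and DNA2 at 136 and 127 against 63.1 and 60.2 CPM. These changes ran along the GC content of the transcripts. The 14 lower members had a GC content of 44.5% to 65.1%, the 15 higher ones 35.2% to 43.7%, and the ranges did not overlap. Pearson's r between GC content and log2 change was -0.88 over the 39 members, and Spearman's rho was -0.90 over the members and -0.81 over 13691 genes, as descriptions over genes that share libraries.

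With a GC correction the CHL1 PRMT5i picture moved to the lower side: 14 members were lower and 2 higher (20.0% and 11.5% of the 13691 genes tested), the median was -0.29 and Pearson's r was -0.32. The 2 higher members were ORC5 (0.57) and POLE2 (0.54). GINS2 (-1.07 without and -1.0 with correction), POLA2 (-0.97 and -0.86), TIMELESS (-1.51 and -1.09), RPA1 (-0.71 and -0.79), RFC5 (-0.46 and -0.85), RFC2 (-1.09 and -0.60), GINS4 (-0.80 and -0.80), POLD1 (-1.77 and -0.56) and POLD2 (-1.53 and -0.55) were lower either way. GINS2 was at 12.8 and 12.9 CPM against 29.1 and 25.1 CPM in the controls. CDC45 was at 30.7 and 35.2 against 51.2 and 49.9 CPM and lost its call under the correction, as did ORC1, POLE, CHTF18 and LIG1. GINS1, GINS3, CLSPN, POLE3 and RPA2 were called lower only with it. Whether the GC shift of these libraries arose in the cells or in the libraries was not tested.

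**Figure D4:**
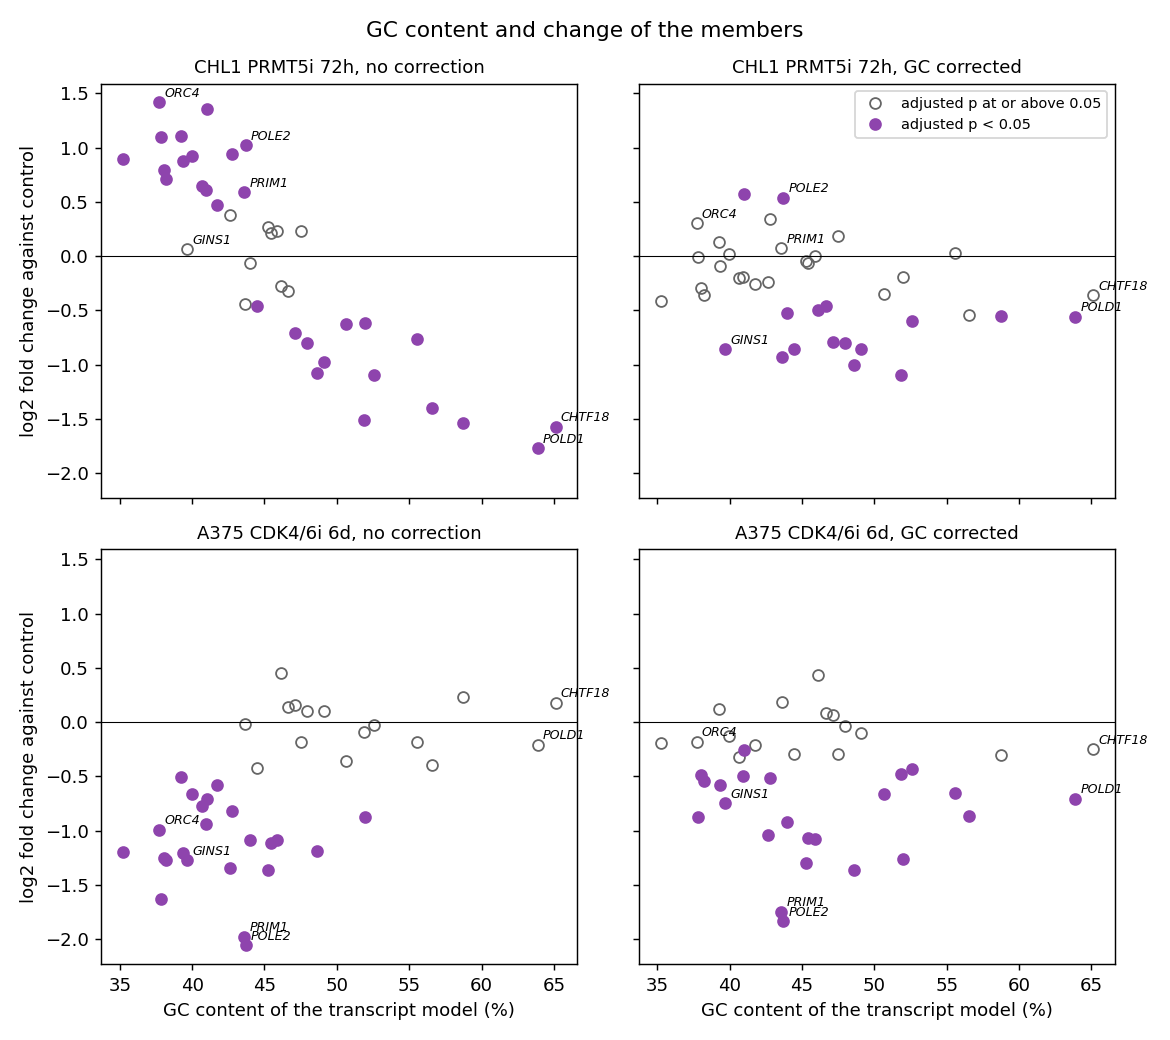
GC content of the transcript model (horizontal axis, %) and log2 fold change against control (vertical axis) of the 39 members, for CHL1 PRMT5i (top) and A375 CDK4/6i at 6 days (bottom), without (left) and with (right) the GC correction; filled points passed an adjusted p below 0.05. Without correction the CHL1 PRMT5i members fall along a line from 1.42 (ORC4) to -1.77 (POLD1), and with it 14 filled points lie below 0 and 2 above.

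The remaining comparisons with the CHL1 PRMT5i libraries carry the same GC shift. Against CDK4/6i at 72 hours, 21 members were higher and 7 lower under PRMT5i (28.4% and 29.4% of all genes), and 12 and 5 with the GC correction (18.2% and 26.3%). PRIM1, at 50.3 and 34.3 CPM against 9.93 and 11.5 CPM, differed by 1.98, and POLE2, at 31.3 and 29.6 against 7.34 and 8.90 CPM, by 1.91. The PRMT5i response differed between the lines for 24 members, being lower in A375 for 20 and higher for 4 (18.8% and 22.1% of all genes), and for 10 and 2 with the GC correction (9.01% and 16.4%). The count of 4 was 1 without CHL1 PRMT5i replicate 1 or without A375 control replicate 1, and 8 without either A375 6-day control. Of the 14 lower members in CHL1 and the 12 in A375, CDC45, POLA2 and TIMELESS were shared, 21.4% and 25.0% of them (1.33% and 21.1% over all genes). POLA1, PRIM2, POLE2, RFC3, DNA2 and WDHD1 were higher in CHL1 and lower in A375, 50% of the members lower in A375, when 43.3% of all genes lower in A375 were higher in CHL1. Of these, POLE2 was called higher in CHL1 with the GC correction too, and the others were not.

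A further 23 genes of replication outside the 40 (licensing, origin firing, the MCM ring and chromatin assembly) had an entry, and RNASEH2A was not analysed here. Of these, 6 fell in CHL1 and 18 in A375 after 72 hours of palbociclib, and 7 and 12 after 6 days, when 2.72%, 7.11%, 7.8% and 21.3% of all genes fell in these comparisons. None rose except 2 in A375 at 6 days, POLD4 and CHTF8 (log2 change of 0.58), the latter named after its value was seen. The A375 6-day controls carry the GC shift, and no GC-corrected values are given for these 23 genes. CHTF8 was at 39.8 and 59.3 CPM in those controls and at 81.3 and 66.7 CPM in the treated 6-day libraries. In the A375 72-hour controls it was at 99.1 and 99.7 CPM. GMNN, the licensing inhibitor geminin, fell from 52.3 and 45.5 to 22.3 and 26.7 CPM in CHL1 and from 32.0 and 41.8 to 10.7 and 12.2 CPM in A375 at 72 hours. MCM10, a helicase activator, changed by -0.95 and -1.69 at 72 hours in CHL1 and A375. POLD4, the small subunit of polymerase delta, was at 0.945 and 0.686 CPM in A375 controls and 2.14 and 1.67 CPM after 72 hours (adjusted p = 0.0591, edgeR), and rose at 6 days from 0.465 and 0.504 to 1.30 and 0.977 CPM. RECQL4, a helicase of origin firing, passed in none of the 4. Under PRMT5i 4 of the 23 (17.4%) fell in A375, when 1.74% of all genes did. In CHL1 12 (52.2%) were lower and 6 (26.1%) higher without a GC correction, when 27.6% and 26.4% of all genes were, in libraries that carry the GC shift.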

How the data were processed

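The samples were 18 libraries of polyadenylated RNA from CHL1 and A375 cells, grouped by the line, treatment and time in their labels. Per the submitters' processing notes and the study's methods, the authors aligned paired-end reads to GRCh37 with HISAT2 2.0.4, counted them on Ensembl genes with HTSeq and removed lowly expressed genes with edgeR. Strandedness is not given in the sources used here. The deposited values are whole-number counts per gene symbol, with library totals that differ, and were used as raw counts; 0 rows lacked a gene name and 0 columns lacked a sample. The members, role classes and other lists were chosen with earlier results of these data known.

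Counts were scaled by TMM and tested with edgeR 4.0.16 (R 4.3.3) quasi-likelihood fits of group means, from the 8 CHL1 libraries (4 groups), the 10 of A375 (5 groups) or, for differences between lines, all 18. Genes were called at a Benjamini-Hochberg adjusted p below 0.05 over all 20705. The test was tested on simulated data. CPM used TMM-scaled library sizes of each line. GC content came from the longest transcript in GENCODE 44 on GRCh37, matched by symbol for 15208 genes and by synonym for 1149, of which 13691 had a mean that reached 1 CPM, and gene positions from the same annotation; the correction entered a loess curve (span 0.4) as an offset. Levels under CDK4/6i are given by a fixed rule: in each class the members with the lowest and highest mean change over the 4 CDK4/6i comparisons, plus ORC1, CDC45 and PCNA, and 4 of the other genes by the same mean. Further values lie outside this rule, such as those of POLD1 and DSCC1, the highest and lowest differences between the untreated lines. The 2 replicates of each group differed by more than sampling noise (chi-square per degree of freedom of 7.60 to 118). Alternatives were median-of-ratios scaling, DESeq2 1.42.0, a filter on low CPM, other sets of libraries, a replicate block, a log2 fold change of at least 1, the GC correction, another A375 control and leaving out each library.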

Additional observations from a re-analysis of the deposited data

Results flagged for a closer look

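Responses that differed between the cell lines by the interaction test of the all-library edgeR fit are listed here as log2 differences, A375 minus CHL1, and no cause was tested. For palbociclib at 72 hours, POLE2 (-1.60) and DNA2 (-1.26) differed. Both had fallen further in A375, and neither call held in each of the fits that left out a single library.

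For PRMT5i at 72 hours, the response of 20 members was lower in A375. Among the origin genes these were ORC2 (-1.14), ORC3 (-1.65), ORC4 (-1.58), ORC5 (-1.26) and ORC6 (-0.71). In the helicase and the polymerases they were GINS1 (-0.79), POLA1 (-1.75), PRIM1 (-1.13), PRIM2 (-1.87), POLD3 (-1.28) and POLE2 (-1.85). In clamp loading and Okazaki fragment processing they were RFC1 (-0.69), RFC3 (-1.66), RFC4 (-0.68), DSCC1 (-1.51) and DNA2 (-1.78). In fork protection they were TIPIN (-0.91), CLSPN (-0.73), WDHD1 (-1.55) and TOPBP1 (-1.17).

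The PRMT5i response of 4 members was higher in A375, namely POLD1 (1.02), POLD2 (1.48), RFC2 (0.85) and CHTF18 (1.14). The CHL1 PRMT5i libraries that enter all of these differences carried the GC shift given above. With the GC correction 10 members were lower and 2 higher (9.01% and 16.4% of the genes tested).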

How the results depend on the processing

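With 2 replicates per group, calls near the threshold depended on single libraries and on which libraries shared the estimate of the spread. The ranges over left-out libraries are given without the share of all genes in the same fits. When single libraries were left out, a lone replicate was assumed to vary like the other groups, and the numbers of members lower ranged from 0 to 18 (CHL1 CDK4/6i 72 hours), 7 to 23 (CHL1 6 days), 11 to 15 (CHL1 PRMT5i), 15 to 36 (A375 CDK4/6i 72 hours), 21 to 28 (A375 6 days) and 0 to 23 (A375 PRMT5i). Members higher ranged from 0 to 1 (CHL1 6 days), 10 to 17 (CHL1 PRMT5i) and 0 to 7 (A375 6 days). For the differences the ranges were 0 to 3 lower and 0 to 18 higher (A375 6 days minus 72 hours), 5 to 6 lower and 19 to 21 higher (CHL1 PRMT5i against CDK4/6i), 2 to 20 higher (A375 PRMT5i against CDK4/6i), 0 to 6 lower (CDK4/6i, A375 minus CHL1), 14 to 21 lower and 1 to 8 higher (PRMT5i, A375 minus CHL1), and 7 to 13 lower and 2 to 7 higher (controls). RFC2 at A375 6 days was between -0.37 and 0.41, the latter without A375 control 6-day replicate 2.

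Counts that also ask for a log2 fold change of 1 or more in size are given with the share of all genes. For CHL1 CDK4/6i 2 members were lower at 72 hours (1.08%) and 5 at 6 days (2.8%). For CHL1 PRMT5i 7 were lower (19.3%) and 5 higher (14.4%). In A375 14 were lower at 6 days of CDK4/6i (11.9%) and 2 under PRMT5i (0.951%). PRMT5i against CDK4/6i left 4 lower in CHL1 (21.7%) and 5 higher in A375 (1.09%). Between controls 0 were lower (20.8%) and 1 higher (21.7%). With only the groups compared in the fit, the counts were 23 lower (CHL1 CDK4/6i 72 hours), 1 higher (CHL1 6 days) and 22 lower (A375 PRMT5i). They were 20 higher for A375 PRMT5i against CDK4/6i and 16 lower for CDK4/6i, A375 minus CHL1. In each of these fits the share of all genes called in the same direction was larger too than with all groups in the fit. These counts are therefore not results about the members alone. The 6 A375 libraries of 72 hours alone gave 24 lower for PRMT5i (9.13% of all genes) and 20 higher against CDK4/6i (11.4%). DESeq2 gave 1 higher for A375 6 days minus 72 hours (0.879% of all genes) and 5 lower for CDK4/6i, A375 minus CHL1 (0.744%).

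The GC correction gave 2 higher for CHL1 PRMT5i (11.5% of the genes tested) and 21 lower for A375 PRMT5i (6.66%). For PRMT5i against CDK4/6i it gave 12 higher in CHL1 (18.2%) and 18 higher in A375 (9.44%). For A375 minus CHL1 it gave 8 lower for CDK4/6i (1.42%), and 10 lower (9.01%) and 2 higher (16.4%) for PRMT5i. Under it CHL1 PRMT5i values changed sign for GINS1 (-0.86), POLA1 (-0.19), PRIM2 (-0.41), POLE (0.027), RFC1 (-0.25), RFC3 (-0.29), DSCC1 (-0.087), DNA2 (-0.0073), TIPIN (-0.20) and WDHD1 (-0.36), and A375 6 days for ORC3 (0.12). A change of sign is given where a member was called with or without the alternative.

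Replicate numbers are shared between groups by label, but with 2 numbers per group the labels do not say that a number marks a shared culture. Deviations of same-numbered samples correlated at -0.34 to 0.45 in CHL1 and at 0.22 to 0.48 in all 3 A375 group pairs of 72 hours, and the block is given as an alternative; the A375 6-day libraries carry no numbers and could not be paired. With the replicate block, 31 members were lower for A375 PRMT5i (15.4% of all genes) and 21 higher against CDK4/6i (18.4%). With the replicate block and GC correction these counts were 29 (20.0% of genes) and 25 (24.5%). For CHL1 PRMT5i 2 were then higher (11.2%), and 13 higher against CDK4/6i (18.2%). The signs then changed for GINS1 (-0.86), POLA1 (-0.19), PRIM2 (-0.41), POLE (0.030), RFC1 (-0.26), RFC3 (-0.29), DSCC1 (-0.086), DNA2 (-0.0063), TIPIN (-0.22) and WDHD1 (-0.36). Pairing the CHL1 CDK4/6i times crosswise, chosen after seeing the data, called 0 members.

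Against the 72-hour A375 control, the A375 6-day values changed sign for ORC5 (0.28), POLA2 (-0.60), POLD2 (-0.92), CHTF18 (-1.14) and RPA1 (-0.89). With that control and the GC correction, chosen after seeing the data, they did for ORC5 (0.16), POLA2 (-0.69), POLD2 (-0.74), CHTF18 (-0.76), RPA1 (-1.03) and RPA2 (-0.56). The causes were not tested. Median-of-ratios scaling, the CPM filter and the fit of all 18 libraries kept every count within 1.5 times its value.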
